A study of Saccharomyces cerevisiae with 12 samples.

Results

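The effects of 2 deletions on budding yeast (Saccharomyces cerevisiae) in rich medium were set against each other, gene by gene. The arrays were those labelled snf2, a SNF2 deletion strain named FY31, and those labelled swi1, a SWI1 deletion strain named YPS1, both grown in YPD, a rich medium of yeast extract, peptone and glucose. Of the 12 two-channel spotted arrays in the series, 6 met this description, 3 for each mutant, numbered as experiments 1, 2 and 3. Every array set the mutant's total RNA in channel 1 against total RNA of the wild-type strain FY2 in channel 2, so the 2 mutants never met on 1 array and their difference is a difference of 2 ratios. Experiments 2 and 3 were printed on one platform and gave the test, with 4 rich-medium arrays, and the 4 arrays of the same strains in minimal medium on that platform added to the estimate of spread. Experiment 1 was run on another platform and was kept apart as a check. The sources used here do not give the rest of each strain's genotype, the mating type or the growth stage. Nothing in them says that the arrays of a mutant came from separate cultures, or whether several arrays shared 1 wild-type RNA. The p-values therefore cover the spread from array to array, which may be technical.

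Snf/Swi is a chromatin-remodelling complex that uses ATP to move and evict nucleosomes, and it helps activators and repressors gain access to promoters. Snf2 is its ATPase, the motor of the complex. Swi1 is a large non-catalytic subunit with an ARID domain that is contacted by activators. Loss of either subunit is known to cause similar growth and transcription defects, among them poor use of sugars other than glucose and poor mating-type switching. The comparison asks in which genes losing the motor and losing a non-catalytic subunit leave different transcript levels.

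Values below are log2 ratios of mutant over wild type, with each array set to a median of 0 over genes, so that 1 unit is 2-fold. The labels name no dyes and the direction of the deposited ratio is not stated. Mutant over wild type is the likely direction, because the labels list wild type as channel 2 and as the first-named strain, and the scanning program's ratio is channel 2 over channel 1. With the opposite reading every difference changes sign, whereas which mutant lies farther from 0 stays as given. The deleted genes did not settle it, since experiment 1 and experiments 2 and 3 went opposite ways for SNF2. The SNF2 (YOR290C) spot read 0.69 and 0.65 on the snf2 arrays of experiments 2 and 3, against -0.08 and -0.73 on the swi1 arrays. In these experiments SNF2 therefore read higher where it was deleted, by 1.07 with a 95% interval of 0.58 to 1.56 (limma, adjusted p = 0.381), and with the opposite reading it would be lower. On the minimal-medium arrays of experiments 2 and 3 it was higher too, at 0.79 and 1.00 in snf2 against -0.11 and 0.00 in swi1. One SWI1 spot read -1.33 on a swi1 array and 0.30 on a snf2 array, and the other read 1.25 and 0.57 on the swi1 arrays. In experiment 1 SNF2 read -0.68 in snf2 against -0.21 in swi1, and SWI1 read 1.58 in snf2 against -0.49 in swi1, so each read lower where it was deleted. The sources used here do not tell what these spots cover or which part of each gene was deleted, so they may check nothing.

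Missing values were spread unevenly over the arrays. On the snf2 array of experiment 3, 40.0% of probes had no value, against 11.4% to 16.2% on the other rich arrays of experiments 2 and 3. The snf2 array of experiment 1 had a standard deviation of 1.40 over its deposited values, against 0.60 to 0.83 on the other arrays of the series. A total of 3397 genes had a value on all 4 rich arrays of experiments 2 and 3, and these were tested. Each array carried a lot name of its own, so no lot could be fitted as a batch.

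Most genes stood at nearly the same level in both mutants. The median absolute difference between snf2 and swi1 was 0.15, and the 95% interval of the difference lay wholly within 2-fold in either direction for 3015 genes, or 88.8%. limma called 1 gene at an adjusted p under 0.05, TSL1, which was higher in snf2. It made up 0.0294% of the genes tested, and 0% were called lower. At an unadjusted p under 0.05 there were 226 genes (6.65%), 132 of them higher in snf2 (3.89%) and 94 lower (2.77%), and 52 had an unadjusted p under 0.01. The 2 arrays of snf2 did not overlap those of swi1 in 1343 genes (39.5%), with snf2 higher in 578 (17%) and lower in 765 (22.5%). Against wild type on the same genes, limma called 1425 genes (41.9%) in snf2, 665 higher (19.6%) and 760 lower (22.4%), and 1420 genes (41.8%) in swi1, 663 higher (19.5%) and 757 lower (22.3%). Both of these tests may share wild-type RNA, so the overlap of their calls is used below only to pick out genes with opposite signs.

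The number of calls depended on single arrays. With 1 array left out, the remaining array of that mutant is assumed to vary like the other groups, and limma then called 69 genes without the snf2 array of experiment 2 and 20 without that of experiment 3. It called 53 without the swi1 array of experiment 2 and 6 without that of experiment 3. At an unadjusted p under 0.05 these fits gave 352, 172, 340 and 152 genes in the same order. Arrays of different mutants were about as close to each other as arrays of 1 mutant. The median absolute gap per gene was 0.16 between the snf2 arrays and 0.15 between the swi1 arrays, and it lay between 0.13 and 0.22 in the 4 pairs of a snf2 with a swi1 array.

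**Figure D1:**
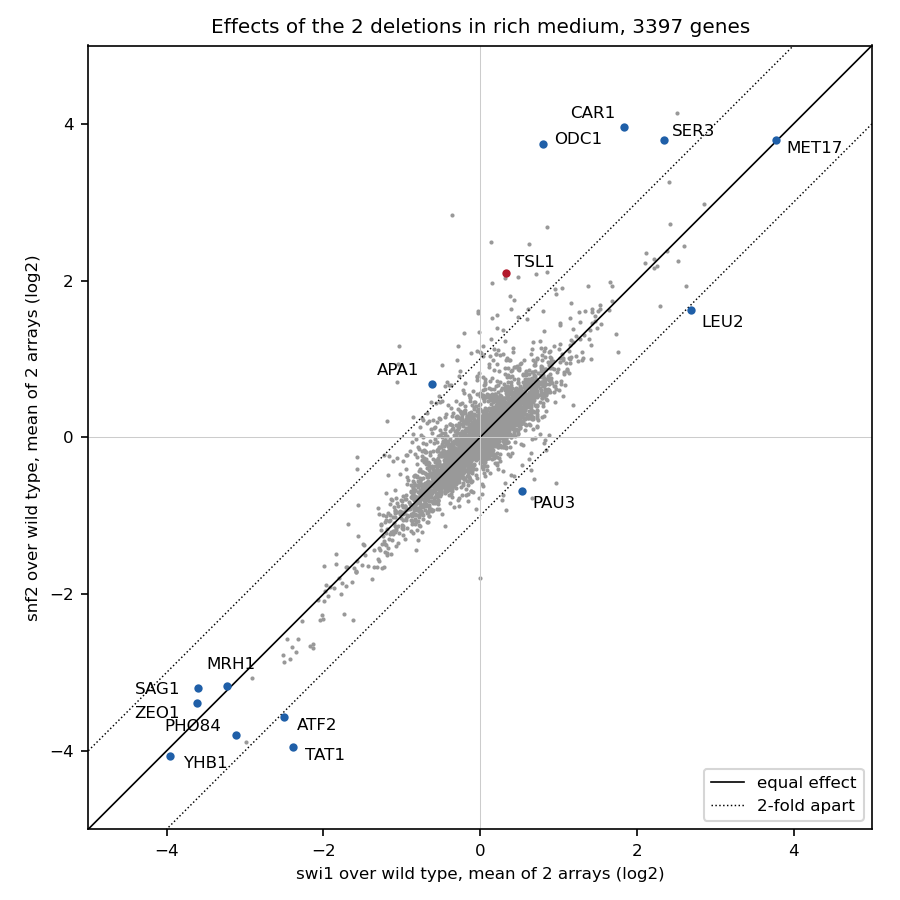
Mean effect of each deletion in rich medium for the genes tested, with snf2 over wild type on the vertical axis and swi1 over wild type on the horizontal axis (log2, each point the mean of the arrays of experiments 2 and 3). Points on the solid line have equal effects and the dotted lines mark a 2-fold difference. MET17 and YHB1 sit near the solid line, whereas TSL1, in red, stands at 2.09 in snf2 and 0.33 in swi1.

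Several of the genes with the strongest effects read nearly alike in both mutants. Those given next were picked after their values were seen, and other genes with strong effects differed more, such as SER3 by 1.45, ATF2 by -1.08 and YRO2 by -0.89, which are described below. MET17 (YLR303W), the O-acetylhomoserine sulfhydrylase that builds homocysteine, read 3.79 and 3.79 on the snf2 arrays and 3.76 and 3.78 on the swi1 arrays. Its difference was 0.02 with a 95% interval of -0.27 to 0.31, although after quantile normalisation of the arrays it was -1.29 (limma, adjusted p = 0.043). YHB1 (YGR234W), the flavohemoglobin that removes nitric oxide, read -4.06 and -4.07 in snf2 and -4.06 and -3.85 in swi1, a difference of -0.11 (interval -0.42 to 0.20). MRH1 (YDR033W), an Hsp30 relative at the plasma membrane, read -3.31 and -3.04 in snf2 against -3.16 and -3.30 in swi1, and the difference was 0.05 (interval -0.31 to 0.41). All 3 genes were more than 8-fold from wild type on every one of these arrays, and none of the 3 intervals reached 2-fold. ALD4 (YOR374W), the main mitochondrial aldehyde dehydrogenase, gave a difference of -0.01 (interval -0.37 to 0.36), and ZEO1 (YOL109W), a peripheral membrane protein tied to cell integrity, gave 0.23 (interval -0.22 to 0.67). In experiment 1, however, ZEO1 read -0.87 in snf2 against -3.50 in swi1. MET17, YHB1, MRH1 and ALD4 differed there by -0.16, -0.68, -0.26 and 0.25.

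Among the 221 genes whose mean over the 4 arrays was at least 2-fold from wild type, 93 were up and 128 down. For 165 of them the interval of the difference lay within 2-fold, and 23 (10.4%) had an unadjusted p under 0.05. In 149 of the 221 the snf2 mean lay farther from 0 and in 72 the swi1 mean did. The median gap in distance from 0 was 0.11 towards snf2, but -0.05 after quantile normalisation. It was 0.07 without the snf2 array of experiment 3, 0.067 without the swi1 array of experiment 2 and 0.19 without the snf2 array of experiment 2. Over all genes tested, 1708 (50.3%) lay farther from 0 in snf2. In experiment 1, distance from 0 was not compared. There the snf2 value lay beyond the swi1 value, in the direction of the mean of the other experiments, in 113 of 185 such genes. The median gap in that direction was 0.18, and the snf2 array of experiment 1 is the one with the wide spread of values.

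TSL1 (YML100W) encodes a regulatory subunit of the complex that makes trehalose, a sugar that protects stressed cells. It read 2.06 and 2.12 on the snf2 arrays, against 0.43 and 0.23 on the swi1 arrays. The arrays of the mutants did not overlap, and those of 1 mutant lay close together. The difference was 1.76 ± 0.14 (limma's moderated standard error, n = 2 arrays per mutant, 95% interval 1.43 to 2.10), which is more than 3-fold, with adjusted p = 0.00861. On experiment 1 the readings were 0.21 in snf2 and -1.33 in swi1, so the difference there was 1.54 although both levels were lower. TSL1 was read from 1 spot. The call was lost after quantile normalisation (1.16, adjusted p = 0.104), with only the 4 rich arrays in the fit (adjusted p = 0.281) and with the arrays of all 3 experiments and a random effect of platform (1.69, adjusted p = 0.282), all from limma.

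The other genes of trehalose synthesis gave smaller differences, and none was called. TPS1 (YBR126C), the synthase, read 0.94 and 1.07 in snf2 against 0.78 and 1.50 in swi1, and TPS2 (YDR074W), the phosphatase, read 1.62 and 0.39 in snf2 against 0.35 and 0.33 in swi1. TPS3 (YMR261C), a regulatory subunit related to Tsl1, read 1.22 and 0.69 in snf2 against 0.54 and 0.86 in swi1. For these 3 genes the differences were -0.14, 0.67 and 0.26, and the limma adjusted p lay between 0.754 and 0.928. Of 28 listed genes for trehalose, glycogen and stress, 17 were measured on all 4 arrays. TSL1 was called, and at an unadjusted p under 0.05 there was also CTT1 (YGR088W), cytosolic catalase T, with a difference of 0.44. At that threshold 3.89% of all genes tested were higher. The median of the list was 0.21, with 9 members above 0 and 8 below, and it ran over 0.04 to 0.25 with 1 array left out. Over all 3397 genes tested the median was -0.01, with 1615 above 0 and 1778 below. Heat shock protein and chaperone genes had a median of -0.14, with 4 of 17 above 0 and none at an unadjusted p under 0.05, and HSP82 (YPL240C), an Hsp90, gave -0.28. Over all 3 experiments with a random effect of platform the median of the chaperones was 0.14.

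Genes of serine and sulfur amino acid synthesis were read next, and none was called for a difference. SER3 (YER081W), the phosphoglycerate dehydrogenase of the first step of serine synthesis, read 3.87 and 3.72 on the snf2 arrays, against 2.36 and 2.33 on the swi1 arrays. Both mutants were far above 0, and snf2 stood higher by 1.45 ± 0.17 (interval 1.05 to 1.84; limma, adjusted p = 0.0586). The difference was 0.22 after quantile normalisation (limma, adjusted p = 0.94), and the adjusted p was 0.45 with arrays scaled to the same spread. Without centring, and with a robust prior, limma called SER3 beside TSL1. In experiment 1 SER3 read 3.03 in swi1 and had no snf2 value. SER33 (YIL074C), a close relative of SER3 whose transcript can share signal with the same spot, read 2.15 and 2.07 in snf2 against 1.88 and -0.17 in swi1, so its difference of 1.26 rested on 1 swi1 array. LPD1 (YFL018C), the lipoamide dehydrogenase that glycine cleavage shares with pyruvate dehydrogenase, read 0.48 and 0.84 in snf2 against 0.07 and -0.96 in swi1. Of 15 listed genes for serine, glycine and one-carbon units, 11 were tested. Of these, 3 had an unadjusted p under 0.05, all higher, beside 3.89% higher over all genes tested. The median of the list was 0.16. It was 0.03 without the snf2 array of experiment 2, with 6 members above 0 and 5 below, and it was -0.33 in experiment 1.

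In the sulfur pathway MET2 (YNL277W), the homoserine acetyltransferase, read 1.52 and 1.64 in snf2 against -0.50 and 0.45 in swi1. The snf2 arrays lay above both swi1 arrays, which were themselves nearly 1 unit apart, and the difference was 1.60 ± 0.28 (limma, adjusted p = 0.228). In experiment 1, however, MET2 read 3.06 in swi1, above these snf2 arrays, and it had no snf2 value there. Sulfate assimilation genes were at high levels in both mutants, with a median of 1.73 in snf2 and 1.27 in swi1 over the 10 tested. MET3 (YJR010W), ATP sulfurylase, read 3.21 and 2.75 in snf2 against 2.87 and 2.84 in swi1, and MET14 (YKL001C), adenylylsulfate kinase, read 1.17 and 2.49 in snf2 against 0.82 and 1.13 in swi1. SUL2 (YLR092W), a sulfate permease, gave a difference of -0.27. The median difference of the sulfate list was 0.12, with none at an unadjusted p under 0.05, and it was -0.26 after quantile normalisation and -0.05 without the snf2 array of experiment 2. Of 14 tested genes for methionine and the S-adenosylmethionine cycle, MET2 was the 1 with an unadjusted p under 0.05, beside 6.65% of all genes tested. The median of the 14 was -0.13, or -0.23 to -0.01 with 1 array left out.

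Arginine genes were set beside them, and none was called. ARG1 (YOL058W), argininosuccinate synthetase, read 1.91 and 1.88 on the snf2 arrays, against 1.10 and 0.81 on the swi1 arrays. Its groups did not overlap, and the difference was 0.94 ± 0.15 (limma, adjusted p = 0.228), although it was 0.44 after quantile normalisation and 0.50 with all 3 experiments. ARG4 (YHR018C), argininosuccinate lyase of the next step, read 2.01 and 1.97 in snf2 against 1.73 and 1.58 in swi1, a difference of 0.33. CAR1 (YPL111W), the arginase that breaks arginine down, read 2.14 and 5.79 in snf2 against 1.80 and 1.87 in swi1, so its difference of 2.13 depended on 1 snf2 array. All 7 tested genes of the 14 listed had positive differences, beside 1615 of 3397 over all genes tested. Their median was 0.32, and 1 had an unadjusted p under 0.05, beside 6.65% of all genes tested. After quantile normalisation 5 were positive and the median was 0.08. With 1 array left out the median ran over 0.16 to 0.41. Among 4 tested histidine genes, HIS2 (YFR025C), histidinol phosphatase, read 0.71 and 0.64 in snf2 against 0.28 and 0.32 in swi1. HIS5 (YIL116W), histidinol-phosphate aminotransferase, read 1.32 and 4.04 in snf2 against 0.98 and 0.74 in swi1.

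**Figure D2:**
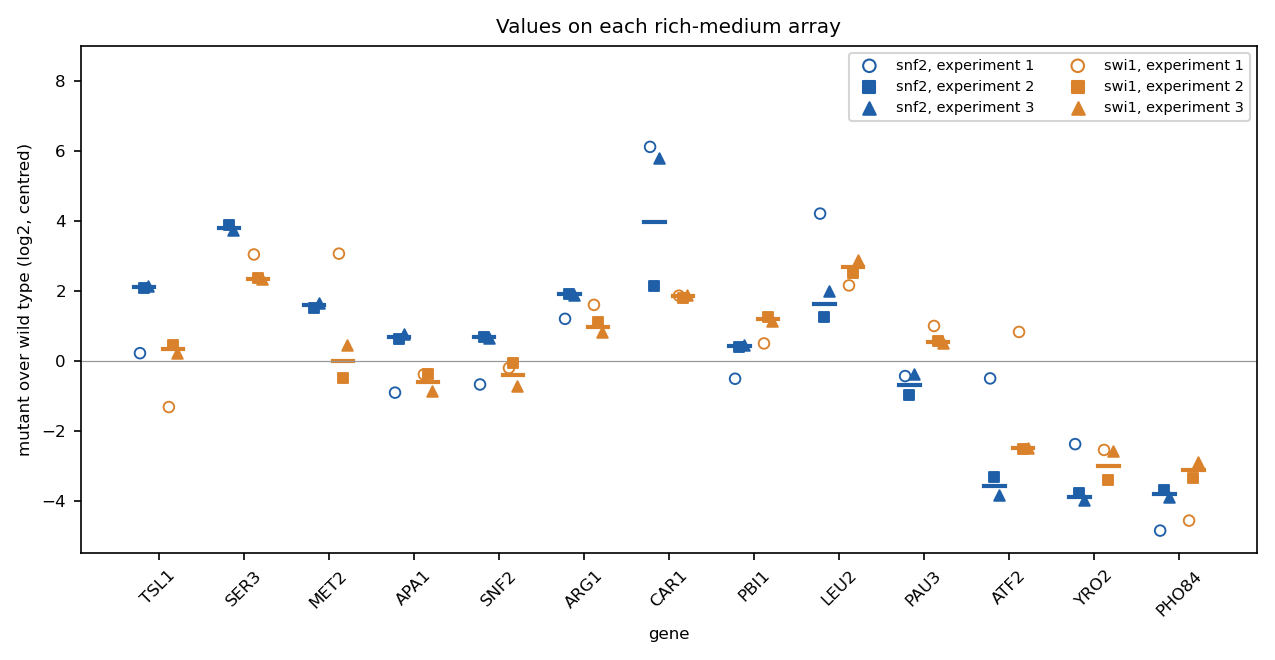
Level of 13 genes on each rich-medium array, as log2 of mutant over wild type, with snf2 in blue to the left and swi1 in orange to the right of each gene. Open circles are experiment 1, filled squares experiment 2 and filled triangles experiment 3, and bars are means of experiments 2 and 3. In experiments 2 and 3 TSL1 and SER3 have tight groups that do not meet. The snf2 points of CAR1, by contrast, lie at 2.14 in experiment 2 and at 5.79 in experiment 3.

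Phosphate genes were low in both mutants, with a median level of -0.85 in snf2 and -0.79 in swi1, and their differences rested largely on experiment 3. PHO84 (YML123C), the high-affinity phosphate transporter, read -3.69 and -3.90 on the snf2 arrays, against -3.35 and -2.90 on the swi1 arrays. The groups did not overlap and the difference was -0.68 ± 0.18 (interval -1.11 to -0.25; limma, adjusted p = 0.62), but -0.14 after quantile normalisation. PHO5 (YBR093C), the repressible acid phosphatase, whose closest relatives can share signal with its spot, read -2.57 and -2.99 in snf2 against -2.52 and -2.50 in swi1, a difference of -0.27. Of 14 tested genes of the phosphate regulon, 12 had negative differences, beside 1778 of 3397 over all genes tested. PHO84 was the 1 with an unadjusted p under 0.05, beside 6.65% of all genes tested. The median was -0.26, and after quantile normalisation it was -0.11 with 9 negative. Without the swi1 array of experiment 3 it was -0.06 with 9 negative, without the snf2 array of experiment 3 it was -0.13, and in experiment 2 alone it was -0.03 with 8 negative.

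Ribosome biogenesis genes had a median level of -0.80 in snf2 and -0.65 in swi1, and cytoplasmic ribosomal protein genes one of -0.69 in snf2 and -0.65 in swi1. NSR1 (YGR159C), a nucleolar protein of pre-rRNA processing, read -1.53 and -1.34 in snf2 against -0.88 and -0.75 in swi1. UTP4 (YDR324C), a subunit of the small-subunit processome, read -0.65 and -0.82 in snf2 against -0.13 and -0.34 in swi1, and RPA135 (YPR010C), a large subunit of RNA polymerase I, read -0.63 and -0.53 in snf2 against -0.23 and -0.21 in swi1. In these 3 genes every snf2 array lay below every swi1 array, as in 22.5% of all genes tested. They were the 3 of 24 tested ribosome biogenesis genes with an unadjusted p under 0.05, and all were lower. Over all genes tested 2.77% were lower at that threshold. The list had a median of -0.19, or -0.29 to -0.11 with 1 array left out, and 19 of 24 were below 0, beside 1778 of 3397 over all genes tested. Of 97 tested cytoplasmic ribosomal protein genes, 64 were below 0 and the median was -0.09. The 5 of them with an unadjusted p under 0.05, all lower, are set beside 6.65% of all genes tested. Paired copies such as RPL12A and RPL12B are nearly identical and are not separate measurements. Mitochondrial ribosomal protein genes had a median of -0.01, with 1 of 39 higher and 1 lower at an unadjusted p under 0.05. Over all genes tested 3.89% were higher and 2.77% lower.

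Sterol and fatty acid genes were read next. ERG25 (YGR060W), the C-4 methylsterol oxidase, read 0.09 and 0.18 in snf2 against 0.88 and 0.57 in swi1, and ERG7 (YHR072W), lanosterol synthase, gave a difference of -0.37. Of 16 tested ergosterol genes, 13 were below 0, beside 1778 of 3397 over all genes tested. At an unadjusted p under 0.05, 2 of the 16 were lower, beside 2.77% of all genes tested. The median of the list was -0.13, or -0.21 to -0.05 with 1 array left out. FAS2 (YPL231W), the alpha subunit of fatty acid synthase, read -0.54 and -0.84 in snf2 against -0.10 and -0.14 in swi1. For ERG25, ERG7 and FAS2 the limma adjusted p lay between 0.62 and 0.741, so none was called.

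**Figure D3:**
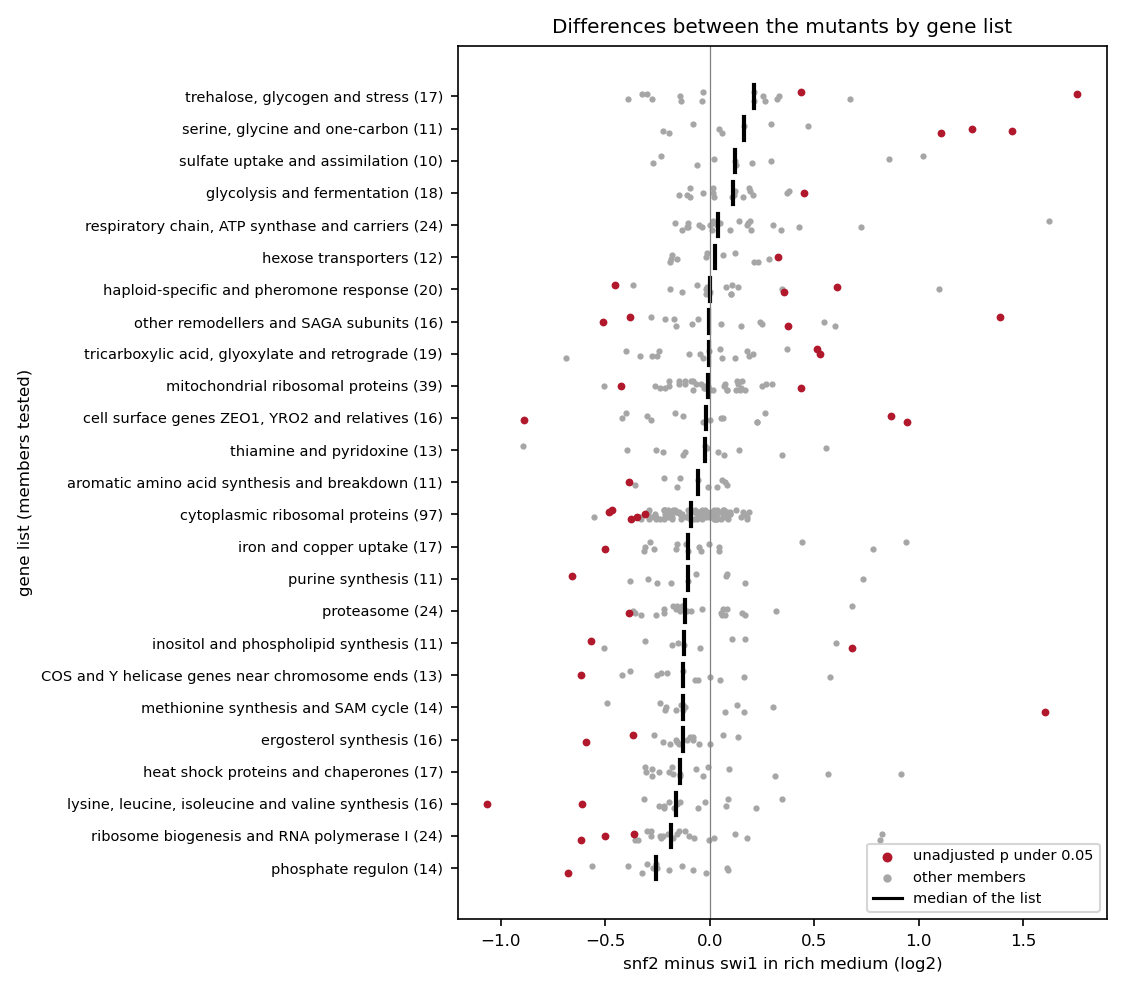
Difference between the mutants (snf2 minus swi1, log2) of each tested gene in the lists with 10 or more tested members, with the number tested in brackets. Red points have an unadjusted p under 0.05, grey points do not, and black bars are list medians, which run from -0.26 for the phosphate regulon to 0.21 for trehalose, glycogen and stress genes.

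Beyond these lists, genes with a small unadjusted p in each direction were looked at, all of them uncalled apart from TSL1. They were taken from genes whose snf2 arrays did not overlap the swi1 arrays. APA1 (YCL050C), a diadenosine tetraphosphate phosphorylase, read 0.62 and 0.75 in snf2 against -0.38 and -0.86 in swi1, a difference of 1.30 ± 0.18 (limma, adjusted p = 0.106). Its 2 spots did not match, since 1 read 1.20 and 1.67 in snf2 against -0.48 and -1.34 in swi1, and the other read 0.04 and -0.17 in snf2 against -0.28 and -0.38 in swi1. PMA2 (YPL036W), a minor isoform of the plasma membrane proton pump whose sequence is close to that of PMA1, read 0.96 and 1.18 in snf2 against 0.25 and 0.15 in swi1. VCX1 (YDL128W), the vacuolar calcium-proton exchanger, read 1.14 and 0.73 in snf2 against 0.14 and 0.09 in swi1. ENV7 (YPL236C), a protein kinase of the vacuolar membrane, read 1.31 and 1.15 in snf2 against 0.45 and 0.18 in swi1. The differences of these 3 membrane proteins were 0.87, 0.82 and 0.91, with adjusted p from 0.228 to 0.4 in limma. PPN1 (YDR452W), a vacuolar polyphosphatase, read 0.77 and 1.90 in snf2 against 0.11 and -0.53 in swi1. In experiment 1 the difference turned in ENV7, at -0.98 in snf2 and -0.17 in swi1, and in VCX1, at -0.43 and -0.10. It also turned in PPN1, at -0.34 in snf2 and 0.40 in swi1, and PMA2 had no value there.

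On the lower side, ATF2 (YGR177C), an alcohol acetyltransferase, read -3.33 and -3.83 in snf2 against -2.51 and -2.49 in swi1, a difference of -1.08 ± 0.21 (limma, adjusted p = 0.4). YRO2 (YBR054W), another Hsp30 relative, read -3.79 and -3.98 in snf2 against -3.40 and -2.59 in swi1, and the difference was -0.89. On these 4 arrays both genes were far below 0 in both mutants and farther in snf2. In experiment 1 ATF2 read -0.51 in snf2 against 0.82 in swi1, and YRO2 read -2.38 in snf2 against -2.55 in swi1. PBI1 (YPL272C) read 0.40 and 0.43 in snf2 against 1.24 and 1.14 in swi1, a difference of -0.77 ± 0.14 (limma, adjusted p = 0.228). MAL32 (YBR299W), a maltase with a near-identical copy, read 1.07 and 1.11 in snf2 against 1.69 and 1.83 in swi1. COS12 (YGL263W), of a repeated family near chromosome ends, read 1.67 and 1.69 in snf2 against 2.26 and 2.33 in swi1. PBI1, MAL32 and COS12 were thus above 0 on all 4 arrays. That both swi1 arrays lay above both snf2 arrays follows from how these genes were picked. It held for 22.5% of all genes tested. In experiment 1 PBI1 kept the sign of its difference, at -0.52 in snf2 and 0.49 in swi1. MAL32 turned, at 2.65 in snf2 and 1.78 in swi1, and COS12 had no value there.

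Of the 1079 genes that limma called against wild type in both mutants, 3 had opposite signs. In none of the 3 was the difference itself called. APA1, given above, was one. PAU3 (YCR104W), of the seripauperin cell wall family, whose many near-identical members can share signal, read -0.98 and -0.39 in snf2 against 0.57 and 0.50 in swi1. Its difference was -1.22 ± 0.26 (limma, adjusted p = 0.463). YOR238W, an uncharacterised gene, read 1.21 and 0.20 in snf2 against -1.26 and -0.86 in swi1, and its difference was 1.76 ± 0.32 (limma, adjusted p = 0.26). Values on opposite sides of 0 on these arrays largely follow from how the 3 genes were picked. In experiment 1 PAU3 kept the pattern, whereas APA1 read -0.91 in snf2 and -0.39 in swi1. YOR238W read 0.51 in swi1 there and had no snf2 value.

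Genes that mark the strains were read next. LEU2 (YCL018W), beta-isopropylmalate dehydrogenase and a common strain marker, read 1.25 and 1.99 in snf2 against 2.51 and 2.87 in swi1, a difference of -1.07 ± 0.25 (limma, adjusted p = 0.523), but -0.03 with all 3 experiments. Its spots differed, with 0.22 and 1.89 in snf2 against 2.89 and 2.95 in swi1 on 1 spot, and 2.28 and 2.09 in snf2 against 2.13 and 2.78 in swi1 on the other. Of the 10 listed marker genes 7 were tested, and LEU2 was the 1 with an unadjusted p under 0.05, beside 6.65% of all genes tested. The other Snf/Swi subunits tested gave differences from -0.25 for ARP9 (YMR033W) to 0.54 for SNF6 (YHL025W), and none had an unadjusted p under 0.05. SNF5 (YBR289W), SWP82 (YFL049W) and TAF14 (YPL129W) gave 0.10, 0.05 and -0.12. Of the 12 listed subunits 7 were tested with SNF2 among them, and SWI1, SWI3, SNF12, ARP7 and RTT102 lacked a value on at least 1 array.

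Mating genes were read as markers of cell type. The alpha-cell genes STE3 (YKL178C), the a-factor receptor, and SAG1 (YJR004C), alpha-agglutinin, read low on all arrays. STE3 read -1.61 and -1.71 in snf2 against -1.83 and -1.59 in swi1, and SAG1 read -3.18 and -3.20 in snf2 against -3.73 and -3.49 in swi1. Their differences were 0.05 and 0.41. Over 3 of the 4 alpha-cell genes, the median level was -1.66 in snf2 and -1.71 in swi1. SAG1 lay below both medians and STE3 lay at them, so the remaining gene tested, MF(ALPHA)1, did not lie below them. The level of MF(ALPHA)1 is not given here. Of 7 a-cell genes 2 were tested, and STE2 (YFL026W), the alpha-factor receptor, read 0.18 and 0.17 in snf2 against -0.05 and -0.29 in swi1. The other, STE6 (YKL209C), the a-factor exporter, went the opposite way, with 0.29 and 0.29 in snf2 against 0.46 and 0.41 in swi1, a difference of -0.15. HO (YDL227C), the endonuclease of mating-type switching, read 0.62 and 0.89 in snf2 against 0.20 and 0.10 in swi1, a difference of 0.61 (limma, adjusted p = 0.62). It is 1 of 20 tested haploid-specific and pheromone response genes, of which 10 were above 0 and 10 below, with a median of -0.0002. At an unadjusted p under 0.05 in limma, STE12 was also higher (0.36) and FIG2 was lower (-0.45). Over all genes tested 3.89% were higher and 2.77% lower. None of the mating genes tested was called for a difference, and in bulk RNA fewer cells of a type and less RNA per cell cannot be told apart.

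Many of the largest mean differences came from 1 array. In 66 genes (1.94%) the means differed at least 2-fold, 53 higher in snf2 (1.56%) and 13 lower (0.383%). In 37 of the 66 the gap between the 2 snf2 arrays was larger than the difference between the mutants, and in 16 the gap between the swi1 arrays was. The mutants' arrays overlapped in 26 of the 66 and did not in 40, of which 31 were higher and 9 lower. ODC1 (YPL134C), a mitochondrial oxodicarboxylate carrier, read 6.78 and 0.72 in snf2 against 0.69 and 0.92 in swi1. IFM1 (YOL023W), the mitochondrial initiation factor 2, read 5.73 and -0.06 in snf2 against -0.52 and -0.19 in swi1. MPS1 (YDL028C), a kinase of spindle pole duplication, read 4.14 and -0.20 in snf2 against -0.03 and 0.34 in swi1. In these 3 the high value was on the snf2 array of experiment 2, and in the next 4 the outlying value was on that of experiment 3.

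AAC1 (YMR056C), a mitochondrial ADP/ATP carrier, read 2.58 and 5.70 in snf2 against 2.42 and 2.61 in swi1. MIC12 (YBR262C), of the mitochondrial inner membrane organising complex, read 0.25 and 4.75 in snf2 against 0.23 and 0.04 in swi1. MEP2 (YNL142W), an ammonium permease, read 0.62 and 3.55 in snf2 against 0.63 and 0.79 in swi1. TAT1 (YBR069C), a permease for tyrosine and branched-chain amino acids, had its outlying value below 0, with -2.48 and -5.43 in snf2 against -2.32 and -2.45 in swi1. On the other snf2 array all 7 genes read nearer to the swi1 arrays than to the outlying value, and none of the 7 had an unadjusted p under 0.05 in limma.

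**Figure D4:**
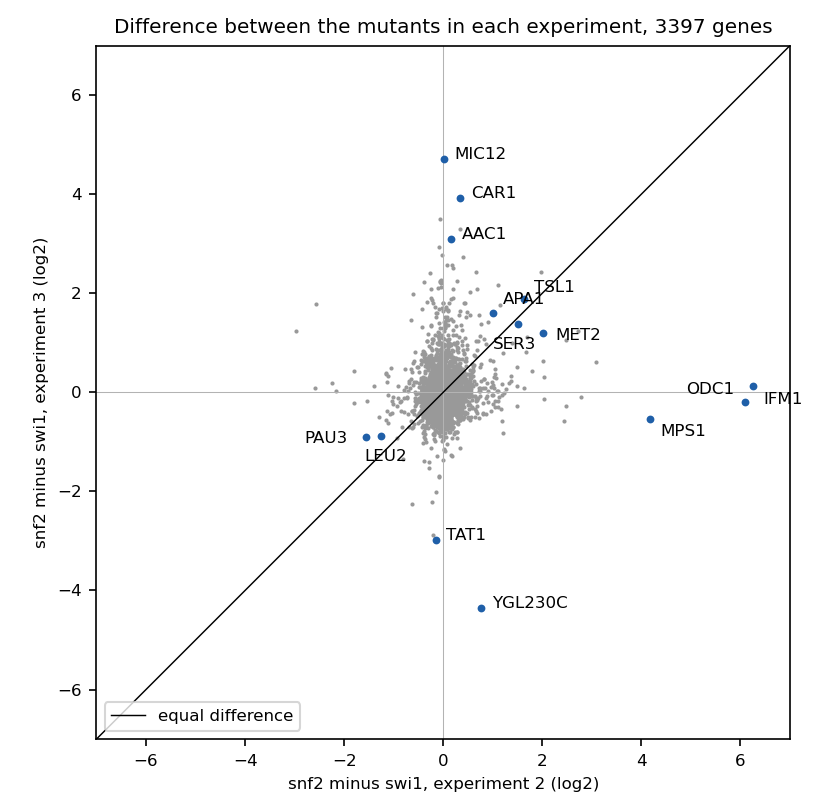
Difference between the mutants (snf2 minus swi1, log2) in experiment 3 against that in experiment 2, each point 1 gene. Points far along 1 axis, such as ODC1 and MIC12, differ in a single experiment, whereas TSL1 and SER3 lie near the line of equal differences.

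The experiments gave little common pattern beyond single genes. Across the genes tested, the differences in experiment 2 and in experiment 3, which share no array, correlated at r = 0.11. Across the 2806 genes also measured in both arrays of experiment 1, its difference correlated with the mean of the others at r = 0.08. Genes are not independent, and these values are descriptions. The standard deviation of the differences was 1.28 in experiment 1, 0.37 in experiment 2 and 0.49 in experiment 3.

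In experiment 1 the sign of the difference was the same for 1490 of 2806 genes (53.1%). Among genes with an unadjusted p under 0.05 it was the same for 116 of 191 (60.7%), and among those with an unadjusted p under 0.01 for 28 of 44 (63.6%). For genes that differed at least 2-fold it was the same for 17 of 30 whose arrays did not overlap and for 9 of 19 whose arrays did. TSL1 kept its sign, as did PAU3, with -0.44 in snf2 and 0.99 in swi1. APA1 did not, at -0.91 in snf2 and -0.39 in swi1, nor did ARG1, at 1.19 in snf2 and 1.59 in swi1. LEU2 also turned, with 4.20 in snf2 and 2.15 in swi1. Base 2 of the logarithm was settled from the values for experiments 2 and 3 and only taken over for experiment 1, where the sign does not depend on it.

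Values in minimal medium were set beside those of the genes described above. These genes were picked for large differences in rich medium, so smaller values elsewhere follow from that choice alone. TSL1 differed by 0.27 there, with 0.81 and 1.02 in snf2 against 0.60 and 0.70 in swi1. SER3 differed by 0.00, MET2 by 0.24 and ARG1 by -0.26. The change of the difference between media was tested in 3207 genes measured on all 8 arrays, and limma called 0 (0%), with 120 (3.74%) at an unadjusted p under 0.05, 58 of them higher in rich medium (1.81%) and 62 lower (1.93%). For TSL1 the change was 1.49 ± 0.20 (limma, adjusted p = 0.184), for SER3 the adjusted p was 0.295 and for ARG1 0.342. CDC39 (YCR093W), the scaffold of the Ccr4-Not complex, differed by -0.57 in rich and by 1.01 in minimal medium (limma, adjusted p = 0.184), but its rich difference turned to 0.022 with 1 spot per gene. SNF2 and PHO84 had like differences in both media, 1.07 and 0.95 for SNF2 and -0.68 and -0.54 for PHO84 in rich and minimal medium.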

How the data were processed

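Log2 ratios of the 2 channels of each array were deposited by the authors, 1 value per probe and array. Images were read with ScanAlyze, version 2.24 for experiments 2 and 3 and of unknown version for experiment 1, per the labels. The sources used here give no normalisation, numerator channel or signal over background. Base 2 was settled from the values of experiments 2 and 3, where 13.3% to 17.3% of values were the logarithm of a ratio of 2 integers no larger than 20. On a shifted set of values the share was 6.06% to 7.09%. On experiment 1 arrays no such excess was found.

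Signs were turned to mutant over wild type, probes were named from the platform's annotation, spots of a gene were averaged, and each array was centred on its median over genes. All 6956 named probes of the main platform matched the RefSeq gene table. limma 3.58.1 in R 4.3.3 was fitted to the 8 arrays of experiments 2 and 3 with 1 mean per group, two-sided, and p-values were adjusted by Benjamini-Hochberg over all genes tested. An adjusted p under 0.05 was a call. Errors are limma's moderated standard errors, and the number of arrays limits the precision. The scripts were tested on simulated data. Tables were handled with Python 3.11.15 and pandas 2.3.3.

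The comparison, the 36 gene lists and the tests were chosen with earlier results of these data known. The rule for named genes took called genes, genes with opposite calls, subunits and common strain marker genes, and members of lists with calls. Since 1 gene was called, further genes were added after their values were seen. These were the 15 genes with the smallest unadjusted p in each direction and the 12 with the largest means in each direction. Members of lists at an unadjusted p under 0.05 and genes with large gaps between arrays were added too. The 15 in each direction were taken only from genes with an unadjusted p under 0.05 whose snf2 and swi1 arrays did not overlap. Promoter motifs were not analysed here. Replicate numbers were not taken to pair arrays. Alternatives changed the centring, scaling, fit, genes, spots and arrays used. Names of genes come from a table of another source than the files, so no coordinates are given.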

Additional observations from a re-analysis of the deposited data

Results flagged for a closer look

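TSL1 stood apart because the test of the difference itself was passed, at 1.76 on the log2 scale, higher in snf2 than in swi1 (limma, adjusted p = 0.00861). The sign was the same in all 3 experiments.

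PAU3 and SNF11 stood apart because all 3 snf2 arrays lay on 1 side of 0 and all 3 swi1 arrays on the other, and the difference was not tested on this basis. PAU3 had a difference of -1.22, with snf2 at -0.98, -0.39 and -0.44 in experiments 2, 3 and 1, against 0.57, 0.50 and 0.99 in swi1 (limma, adjusted p = 0.463). SNF11, a small Snf/Swi subunit, had a difference of 0.17, with snf2 at 0.09, 0.21 and 5.09 in experiments 2, 3 and 1, against -0.03, -0.02 and -0.25 in swi1 (limma, adjusted p = 0.793). The pattern was found in 30 of 2806 genes (1.07%), with snf2 above 0 in 20 (0.713%) and below in 10 (0.356%). Groups of 2 or 3 arrays are too small to look for single outlying arrays by a test.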

How the results depend on the processing

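Limits are that 2 arrays per mutant were tested, that dim spots could not be told from bright ones because no signal over background is given, and that the direction of the ratios is likely but not stated. The settings chosen after seeing the data were genes measured on at least 1 array of each mutant, the robust prior and each of experiments 2 and 3 alone. The cause of the changes below was not tested.

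For the difference between the mutants limma called 1 gene in the fit reported. It called 2 without centring, on genes measured on all 8 arrays and with a robust prior, 3 with 1 spot per gene, and 0 with only the 4 rich arrays or with all 3 experiments and a random effect of platform. It called 18 on genes measured on at least 1 array of each mutant, 20 with experiment 2 alone, 114 with experiment 3 alone and 6 to 69 with 1 rich array left out. After quantile normalisation the 1 gene called was MET17, and with 2 or more spots per gene it was APA1. Genes at an unadjusted p under 0.05 numbered 36 with 2 or more spots (451 genes tested), 373 with all 3 experiments, 377 on genes measured at least once per mutant, 450 in experiment 3 alone and 152 to 352 with 1 array left out. The interval of the difference lay within 2-fold for a share of genes that moved by less than 1.5 times in every setting run.

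TSL1 kept its direction in every setting that included it, which the one with 2 or more spots did not. It did not pass after quantile normalisation (1.16), with only the 4 rich arrays (1.76), with a replicate block (1.76, limma adjusted p = 0.0657) or with all 3 experiments (1.69), and it passed with each array left out (1.66 to 1.87). Same numbers were not read as pairs, since deviations of same-numbered arrays from their group means correlated at 0.02 in rich and -0.03 in minimal medium. With the replicate block limma called 0 genes, with 206 at an unadjusted p under 0.05. CDC39 turned to 0.022 with 1 spot per gene, the 1 reversal in 513 values of the 30 genes tested for direction.

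Against wild type, limma called 191 genes in snf2 and 192 in swi1 with 2 or more spots, 512 and 335 with all 3 experiments, and 809 and 743 with experiment 2 alone. With 1 array left out the counts ran over 780 to 1390 in snf2 and 698 to 1439 in swi1. The median gap in distance from 0 turned to -0.046 after quantile normalisation. For the change between media limma called 1 with 2 or more spots, 6 in experiment 2 alone, 54 in experiment 3 alone and 0 to 43 with 1 array left out. At an unadjusted p under 0.05 these were 21 with 2 or more spots, 324 in experiment 3 alone and 126 to 262 with 1 array left out.

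The share of genes with the same sign in experiment 1 was 99.4% at an unadjusted p under 0.05 when that experiment was itself in the fit. Of called genes it was 0% with 2 or more spots, 50.0% with 1 spot per gene and on genes measured at least once per mutant, 54.5% in experiment 2 alone, 55.4% in experiment 3 alone, and 40.0% to 75.0% with 1 array left out. With calls limited to 2-fold it did not change, as the 1 call was over 2-fold. The promoter motifs planned were not run, as no promoter sequences were used here.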

Other observations

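The snf2 arrays of experiments 1 and 3 shared large values in 4 genes that read lower on the snf2 array of experiment 2. The genes were chosen after their values were seen, and no test was made of the pattern. CAR1, arginase, read 6.11, 2.14 and 5.79 in snf2 in experiments 1, 2 and 3, against 1.86, 1.80 and 1.87 in swi1. GUD1 (YDL238C), guanine deaminase, read 4.25, 0.85 and 3.24 in snf2, against 0.73, 0.45 and 0.51 in swi1. MEP2, the ammonium permease, read 2.29, 0.62 and 3.55 in snf2, against 0.56, 0.63 and 0.79 in swi1. AAC1, the mitochondrial ADP/ATP carrier, read 6.12, 2.58 and 5.70 in snf2, against 1.78, 2.42 and 2.61 in swi1. The 3 swi1 arrays lay within 1 unit of each other in all 4 genes, and the snf2 array of experiment 2 read near them. AGX1 (YFL030W), alanine-glyoxylate aminotransferase, read 4.38, 0.64 and 1.33 in snf2 against 1.31, 0.26 and 0.07 in swi1. Other genes with an outlying value on the snf2 array of experiment 3 did not share it with experiment 1. On the snf2 arrays of experiments 1 and 3, MIC12 read 0.36 and 4.75, and PTK1 (YKL198C) read -0.54 and 3.73. HIS5 read 1.23 and 4.04 on them, and TAT1 read -1.69 and -5.43. How many genes went each way was not counted.

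Of the 30 genes with the mutants on opposite sides of 0 on all 6 arrays, 4 are given here, chosen after their values were seen. ARC15 (YIL062C), a subunit of the actin-nucleating Arp2/3 complex, read 0.54, 0.25 and 0.46 in snf2 in experiments 1, 2 and 3, against -0.72, -0.21 and -0.18 in swi1. ITR1 (YDR497C), the myo-inositol transporter, read 0.53, 0.54 and 0.65 in snf2, against -0.19, -0.07 and -0.10 in swi1. SSN3 (YPL042C), the kinase of the Mediator's Cdk8 module, read 2.50, 0.60 and 0.28 in snf2, against -0.52, -0.89 and -0.23 in swi1. CAF16 (YFL028C) read 0.05, 0.24 and 0.30 in snf2, against -0.03, -0.16 and -0.55 in swi1. None of the 4 was called, with limma adjusted p from 0.62 to 0.696.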
